A study of Mus musculus with 4 samples.

Results

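Toll-like receptors are membrane proteins that recognise conserved parts of microbes and start the inflammatory response of neutrophils and macrophages. Tlr1, Tlr2, Tlr4, Tlr5 and Tlr6 act mostly at the cell surface, where they read lipoproteins, lipopolysaccharide and flagellin, whereas Tlr3, Tlr7, Tlr8, Tlr9 and Tlr13 read nucleic acids in endosomes. Most of them signal through the adaptor Myd88 to NF-kB. Tlr4 has been reported as a target of miR-223, a microRNA abundant in myeloid cells that pairs with transcripts through its seed and lowers them.

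The 10 receptor genes were looked up by name among the 41174 non-control probes (27674 distinct names) of a mouse whole-genome array, and 10 probes of 9 of these genes were found. Tlr3 had 2 probes, the other 8 genes had 1 each, and Tlr13 had 0 under its name. RNA came from immature granulocytes, the neutrophil precursors of the marrow, which were sorted from male C57BL/6 mice. The mice were wild type (WT, 2 arrays) or miR-223 knockout (KO, 2 arrays), and the labels give neither age nor treatment and no detail of the deletion. Each RNA sample was hybridised to its own array in 1 colour, and the question here is how receptor transcripts differ when miR-223 is lacking. The labels do not say whether the replicates were separate animals, so the spread behind each p-value may be only technical.

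All 4 arrays lay on 1 slide. Between 59.6% and 62.9% of spots on an array were well above background and 0 were saturated. WT arrays had a 75th percentile of processed signal of 314 and 310, and KO arrays of 361 and 422. Values below are log2 signals minus that percentile, so 0 is a signal at the 75th percentile of its array, and levels of different probes were not set against each other. Of the 14 marker genes listed for immature granulocytes, 12 were on the array and 12 were well above background, with a mean log2 value of 8.05 and 8.18 on the WT arrays and 8.20 and 8.10 on the KO arrays. Cebpe and Ly6g had no probe by name. No probe is named for Mir223 in the files, so the genotype could not be checked on the deleted gene. With 2 arrays against 2 an exact permutation test cannot go below a two-sided p of 0.333, so p-values come from limma, which shares the spread over all 25749 probes tested.

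The 2 mature strands of miR-223 are shown with the seed, bases 2 to 8, in capitals, because pairing of this stretch to a transcript is how a target is recognised. The 3p strand is the abundant one in myeloid cells. Both are RefSeq sequences on build GRCm38.p6, at chrX:96242884-96242905 for the 3p strand and chrX:96242842-96242864 for the 5p strand, both on the plus strand.
mmu-miR-223-3p: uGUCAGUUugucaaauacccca
mmu-miR-223-5p: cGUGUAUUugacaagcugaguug

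The letters that pair with the 3p seed were searched in the probes on the transcript's strand. The shortest site, ACTGAC, was in 0 of the 10 receptor probes and in 1.411% of all 41174 probes. With 1 more paired base the site is AACTGAC, which was in 0 of the 10 and in 0.372% of all probes. The full site AACTGACA was in 0 of the 10 and in 0.136% of all probes. A probe covers 60 bases of a transcript, so this says only that these letters are not in those windows. Exon and UTR positions of the probes were not used here.

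The probes of Tlr1, Tlr2 and Tlr8 are printed because they show how separate family members are read by distinct sequences that still share a short run. Capitals mark TTTTGG, which is in 3 of the 10 receptor probes and in 2.64% of all probes. These letters were picked because the printed probes share them, so the shares do not test anything about the family. The longest run that any 2 receptor probes share is 8 bases of 60. Positions are on mm9, as the files give them: chr5:65316115-65316174 for Tlr1, chr3:83640344-83640403 for Tlr2 and chrX:163680715-163680774 for Tlr8, each on the minus strand.
Tlr1: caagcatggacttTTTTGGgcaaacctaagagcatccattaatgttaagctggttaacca
Tlr2: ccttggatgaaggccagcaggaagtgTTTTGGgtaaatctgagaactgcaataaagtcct
Tlr8: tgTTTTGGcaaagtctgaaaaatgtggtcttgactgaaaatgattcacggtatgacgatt

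Each of these 3 probes has 1 reading frame without a stop codon. The Tlr1 probe lies 28.2 kb from the Tlr6 probe on chr5, and the Tlr7 probe lies 62.5 kb from the Tlr8 probe on the X chromosome, so both pairs are close neighbours.

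In KO granulocytes, 6 of the 7 receptor probes that were well above background on all 4 arrays, Tlr1, Tlr2, Tlr4, Tlr5, Tlr6 and Tlr7, had higher values on both KO arrays than on both WT arrays. Tlr9 was lower on both KO arrays. The log2 differences ran from 0.27 for Tlr4 to 0.92 for Tlr6, and that of Tlr9 was -0.36. None of the 8 tested receptor probes passed an adjusted p of 0.05 in limma, where 0% of all probes passed, the smallest adjusted p of any probe being 0.0874 and 6342 probes having an unadjusted p under 0.05. Both KO arrays lay above both WT arrays in 26.3% of all tested probes and below them in 32.8%. When the variance was allowed to follow the signal (limma's intensity trend), Tlr1, Tlr5 and Tlr6 passed, 3 of 8 tested, against 5.03% of all tested probes that passed as higher and 4.6% that passed as lower. The directions held when the arrays were scaled by their medians or quantiles. After normexp background correction, which models each signal as true signal plus noise, Tlr1 and Tlr5 turned to -0.16 and -0.60, and without control spots in that correction they stayed positive, at 0.31 and 0.16. The highest local background of a control spot was 80750 on the WT replicate 1 array and 27 over the other 3 arrays. Among non-control spots it was 45, on WT replicate 2.

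**Figure D1:**
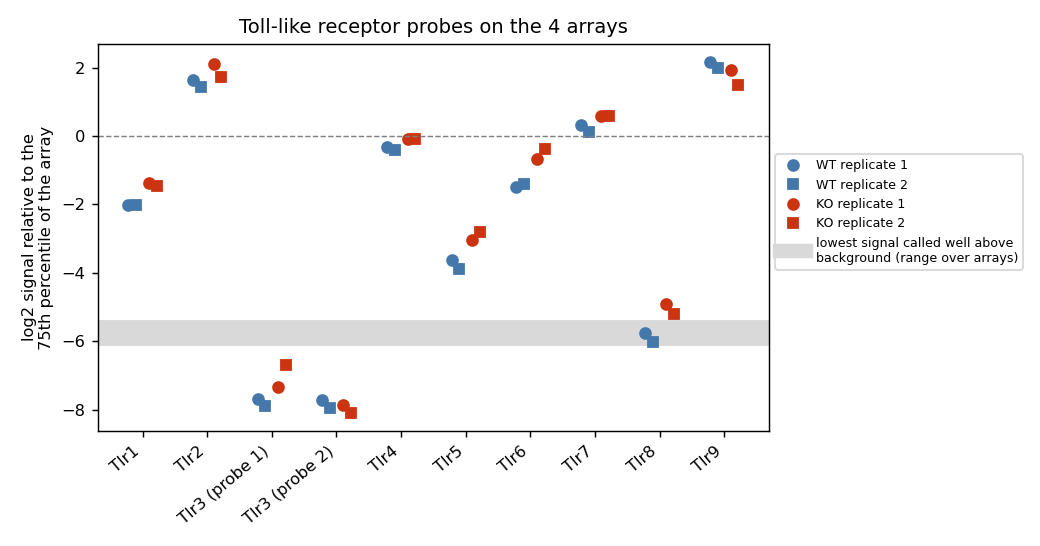
Log2 signal of each Toll-like receptor probe on the 4 arrays, relative to the 75th percentile of the array (dashed line), with WT in blue and KO in red. The grey band marks the detection limit, the lowest signal well above background, over the 4 arrays. Values are to be compared within a probe: 6 probes above background on all 4 arrays are higher on both KO arrays, Tlr9 is lower on both, and both Tlr3 probes lie below the band. After normexp background correction Tlr1 and Tlr5 have the opposite sign, but not when control spots are left out of that correction.

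Tlr6 pairs with Tlr2 to read diacylated lipopeptides. Its values were -1.48 and -1.39 in WT and -0.67 and -0.37 in KO, so the groups were well apart and KO replicate 2 was the highest. The log2 difference was 0.92 ± 0.13 (SE, n = 2 against 2), or 1.89-fold, with an adjusted p of 0.093 in limma and 0.014 with the intensity trend. Only 1.61% of tested probes had a larger difference. After normexp background correction the difference was 0.31, or 0.65 when control spots were left out of that correction.

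Tlr1 pairs with Tlr2 to read triacylated lipopeptides. Its values were -2.0 and -2.02 in WT and -1.38 and -1.47 in KO, and within each genotype the arrays differed far less than the genotypes did. The log2 difference was 0.58 ± 0.09 (SE, n = 2 against 2), or 1.5-fold, with an adjusted p of 0.093 in limma and 0.030 with the trend. A larger difference was found in 5.19% of tested probes.

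Tlr2 is the shared partner of both. Its probe was spotted 10 times on each array and averaged 1.64 and 1.43 in WT and 2.10 and 1.73 in KO. KO replicate 1 was highest, and KO replicate 2 was 0.09 above WT replicate 1. Spots of the same array had an SD of 0.07 to 0.15. The log2 difference of 0.38 ± 0.17 (SE, n = 2 against 2) had an adjusted p of 0.265 in limma. It was 0.19 without KO replicate 1 and 0.57 without KO replicate 2, so its size rested on which KO array was kept. After normexp background correction it was 0.67, or 0.43 when control spots were left out of that correction.

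Tlr4, the lipopolysaccharide receptor, was also spotted 10 times per array. Its values were -0.31 and -0.42 in WT and -0.09 and -0.10 in KO, with an SD between spots of 0.07 to 0.11. Both KO arrays were above both WT arrays, although single spots of the 2 genotypes overlapped. The log2 difference was 0.27 ± 0.09 (SE, n = 2 against 2), or 1.21-fold, with a 95% interval of 0.03 to 0.52. It was 0.15 after normexp background correction, or 0.22 when control spots were left out of that correction. Its unadjusted p was 0.037 and its adjusted p 0.179 in limma, and the adjusted p was 0.108 with the intensity trend. Of all tested probes, 16.2% had a larger difference and 11.1% were higher in KO at an unadjusted p under 0.05. A further probe, described in the files as a transcript of the Tlr4 gene but carrying another name, was not well above background on any array. It lies at chr4:66590556-66590615 on mm9, and the probe named Tlr4 at chr4:66503724-66503782.

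**Figure D2:**
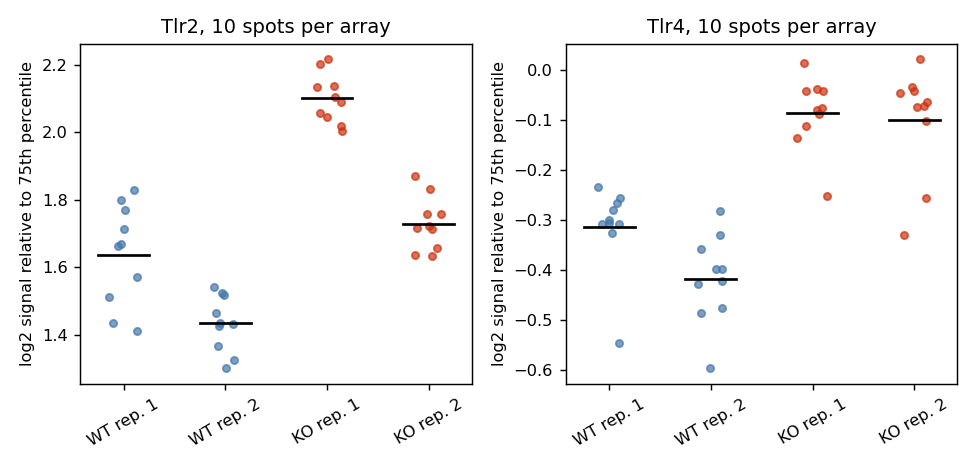
Log2 signal of the 10 spots of the Tlr2 probe and of the Tlr4 probe on each array, relative to the 75th percentile of the array, with the mean as a line. Each spot is the same RNA measured again, so spots are not replicates of a genotype. Tlr4 means are -0.31 and -0.42 in WT and -0.09 and -0.10 in KO, and the Tlr2 mean of KO replicate 2 is 0.09 above that of WT replicate 1.

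Tlr5 reads bacterial flagellin. Its values were -3.64 and -3.88 in WT and -3.03 and -2.80 in KO, without overlap. The log2 difference was 0.85 ± 0.14 (SE, n = 2 against 2), or 1.80-fold. The adjusted p was 0.098 in limma and 0.044 with the trend, and 2.08% of tested probes had a larger difference. The processed signals behind it were low, 25.2 and 21.1 on WT arrays and 44.2 and 60.8 on KO arrays. This was one of the probes whose sign turned with normexp background correction (-0.60, or 0.16 without control spots in it).

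Among the endosomal receptors, Tlr7 and Tlr8 read single-stranded RNA. Tlr7 had values of 0.33 and 0.13 in WT and 0.60 and 0.59 in KO, and its KO arrays nearly coincided above both WT arrays. The log2 difference of 0.36 ± 0.11 (SE, n = 2 against 2) had an adjusted p of 0.161 in limma and 0.066 with the trend. Tlr8 was not well above background on either WT array and was above it on both KO arrays. Its measured values were -5.77 and -6.02 in WT and -4.92 and -5.19 in KO. With the lowest signal well above background on each WT array taken where it exceeded the probe's own, Tlr8 was at least 1.39-fold higher in KO, with an adjusted p of 0.102 in limma and 0.193 with the trend. It entered the test only through its KO arrays, and after normexp background correction its log2 difference was -1.13, or -0.14 when control spots were left out of that correction.

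Tlr9 reads unmethylated CpG DNA. Its values were 2.18 and 2.01 in WT and 1.95 and 1.51 in KO, so that KO replicate 2 stood lowest and KO replicate 1 lay 0.06 below WT replicate 2. The log2 difference of -0.36 ± 0.19 (SE, n = 2 against 2) had an adjusted p of 0.308 in limma. It was -0.15 without KO replicate 2 and -0.58 without KO replicate 1. After normexp background correction it was only -0.02, or -0.32 when control spots were left out of that correction. Markers of plasmacytoid dendritic cells, in which Tlr9 is abundant, had a mean log2 value of 0.04 and -0.49 in WT and 0.37 and -0.83 in KO over 8 of 8 genes. That mean was lowest in KO replicate 2 and highest in KO replicate 1. The part of these cells in the Tlr9 value was not tested.

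Both Tlr3 probes, for the receptor of double-stranded RNA, were not well above background on any of the 4 arrays and were not tested. Their processed signals were between 1.25 and 4.09.

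**Figure D3:**
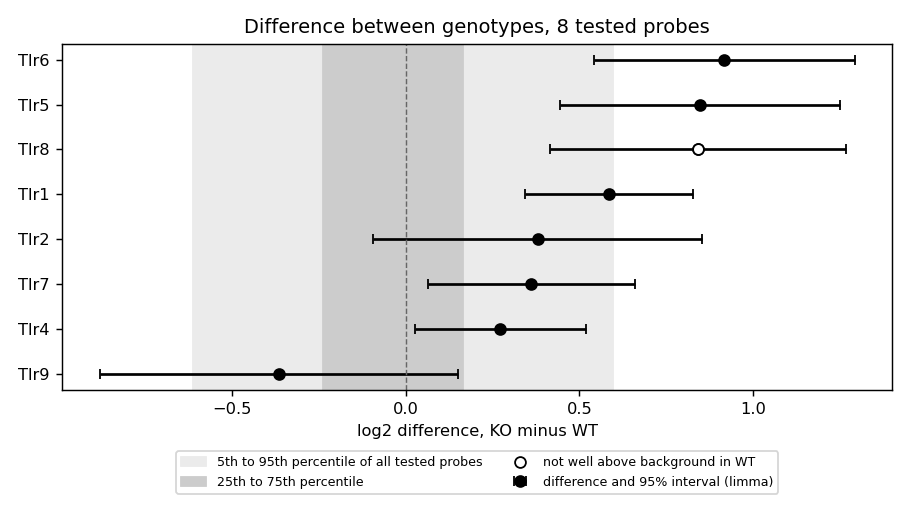
Log2 difference, KO minus WT, of the 8 tested Toll-like receptor probes with the 95% interval from limma. Bands span the 25th to 75th and the 5th to 95th percentile of the 25749 tested probes, the latter from -0.61 to 0.60. Tlr6 and Tlr5 lie above the 95th percentile, although Tlr5 has the opposite sign after normexp background correction (0.16 without control spots in it). Tlr8, the open symbol, was not well above background in WT, so its plotted value has no rank. Its bound of 1.39-fold was computed for the reported analysis only.

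**Figure D4:**
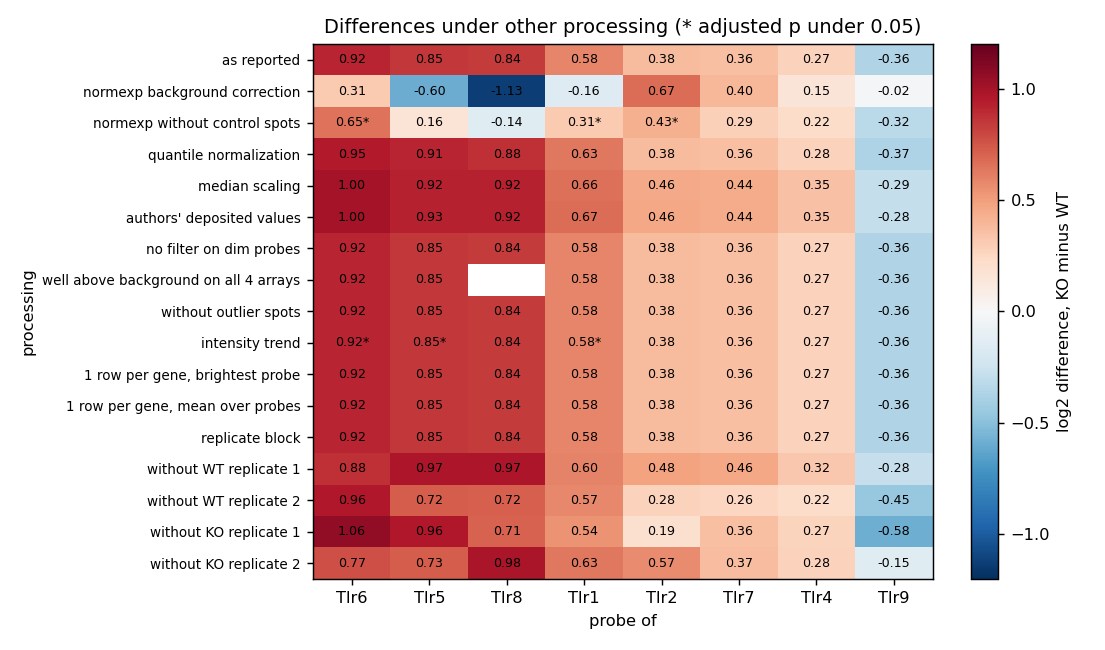
Log2 difference, KO minus WT, of the 8 tested receptor probes (columns) as reported and under each of 16 other ways of processing (rows), with red for higher in KO, blue for lower and * for an adjusted p under 0.05 in limma. Tlr4 stays between 0.15 and 0.35 with no asterisk. Tlr1, Tlr5 and Tlr8 are negative in the normexp row, Tlr8 also in the row of normexp without control spots, and Tlr8 has no value where all 4 arrays had to be above background.

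Several receptors depend on helper proteins at the surface or in the endosome. Of the 18 co-receptors, chaperones and trafficking factors listed, 17 were tested, each by its brightest probe. None passed an adjusted p of 0.05. Both KO arrays lay above both WT arrays in 11 and below in 1, against 28% and 30.5% of all 16978 genes. The list's median log2 difference was 0.23, against -0.02 over all genes. It was 0.43 after normexp background correction, or 0.25 when control spots were left out of that correction. In this list 14 were higher in KO, where 47.6% of all genes were. With the intensity trend 5 passed as higher and 0 as lower, against 5.88% and 4.56% of all genes. Ly96, also called MD-2, holds lipopolysaccharide for Tlr4. It had values of -1.61 and -1.66 in WT and -0.68 and -0.70 in KO, a log2 difference of 0.95 ± 0.08 (SE, n = 2 against 2), with an adjusted p of 0.0874 in limma and 0.0073 with the trend. Its partner in this recognition, Cd14, had 2.65 and 2.16 in WT and 3.30 and 2.92 in KO, a log2 difference of 0.71 ± 0.23, with adjusted p of 0.182 and 0.062 in the same fits. Ly86, which forms a complex with the receptor-like protein Cd180, differed by 0.66 ± 0.12 (trend adjusted p 0.016). Slc15a3 and Slc15a4, endolysosomal transporters that assist signalling of the nucleic acid receptors, differed by 0.88 ± 0.08 and 0.65 ± 0.13 (trend adjusted p 0.0090 and 0.019). Unc93b1, which escorts the endosomal receptors out of the endoplasmic reticulum, differed by 0.23 ± 0.09 on its brightest probe and by 0.15 on the other, with an adjusted p of 0.236 in limma on the brightest. Ctsk was not well above background.

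Downstream of the receptors, the adaptors and proximal kinases had small differences. Of 24 listed, 23 were tested. Both KO arrays lay above both WT arrays in 3 and below in 11, against 28% and 30.5% of all genes. The median log2 difference was -0.11, or -0.06 without KO replicate 2. After normexp background correction it was 0.16, and -0.11 again when control spots were left out of that correction. None passed in limma with or without the trend. Myd88, the common adaptor, had 3.49 and 3.31 in WT and 3.46 and 3.38 in KO, a log2 difference of 0.02 ± 0.11 with overlapping groups. Ticam1, the adaptor of Tlr3 and Tlr4 that leads to interferon, differed by 0.03 ± 0.08. Irak4, the kinase first recruited to Myd88, differed by 0.07 ± 0.11 on its brightest probe and by -0.20 on the other. The smallest p-values in this list belonged to Ticam2 at 0.47 ± 0.13, Tab1 at -0.31 ± 0.11, Peli1 at -0.23 ± 0.08 and Ikbke at 0.22 ± 0.08, with adjusted p in limma from 0.149 to 0.210. Sarm1 was not well above background.

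Among the transcription factors at the end of the pathway, 9 of 10 were tested, 5 were higher and 4 lower in KO, and both KO arrays lay above both WT arrays in 3 and below in 1, shares that in all genes were 28% and 30.5%. Their median log2 difference was 0.02. None passed in limma, and with the trend 2 passed as higher and 0 as lower, against 5.88% and 4.56% of all genes. These were the interferon regulatory factors Irf7, with -0.52 and -0.40 in WT and 0.26 and 0.53 in KO, and Irf5, with 0.32 and 0.20 in WT and 1.0 and 0.79 in KO. Their log2 differences were 0.86 ± 0.13 and 0.63 ± 0.12, with trend adjusted p of 0.013 and 0.020. Irf8 differed by 0.47 ± 0.17 and Irf1 by 0.11 ± 0.11. Rel was not well above background.

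Of the 20 inhibitors listed, 19 were tested, 10 were higher and 9 lower, where 47.6% of all genes were higher, and the median was 0.00. None passed in limma. With the trend 1 passed as higher, where 5.88% of all genes did. This was Il1rl1, the interleukin-33 receptor, whose values were -2.65 and -2.69 in WT and -1.65 and -1.41 in KO (log2 difference 1.14 ± 0.12, trend adjusted p 0.0097). Tnip2 differed by 0.39 ± 0.10 and Sigirr by 0.31 ± 0.10. Irak3, which restrains Irak kinases, had a log2 difference of -0.23 ± 0.08 on its brightest probe and -0.12 and -0.27 on its others, with an adjusted p in limma of 0.201 on the brightest. Tnip3 was not well above background.

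Of 22 transcripts that receptor signalling induces, 15 were tested and 12 were higher in KO, where 47.6% of all genes were. Both KO arrays lay above both WT arrays in 9 and below in 0, against 28% and 30.5% of all genes. The median log2 difference was 0.50. It was 0.25 without KO replicate 1, 0.31 without WT replicate 2, 0.17 after normexp background correction, 0.33 when control spots were left out of it and 0.22 without the filter on dim probes. None passed in limma, and with the trend 3 passed as higher, against 5.88% of all genes: the chemokine Ccl3 (1.03 ± 0.21), the adhesion molecule Icam1 (0.80 ± 0.17) and the costimulatory molecule Cd80 (0.64 ± 0.14). Il1b, an inflammatory cytokine, had -0.39 and -0.69 in WT and -0.05 and 0.55 in KO, a log2 difference of 0.79 ± 0.25 with a trend adjusted p of 0.061. Il1a, Il6, Il10, Il12b, Cxcl1, Nos2 and Ifnb1 were not well above background on enough arrays to be tested.

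**Figure D5:**
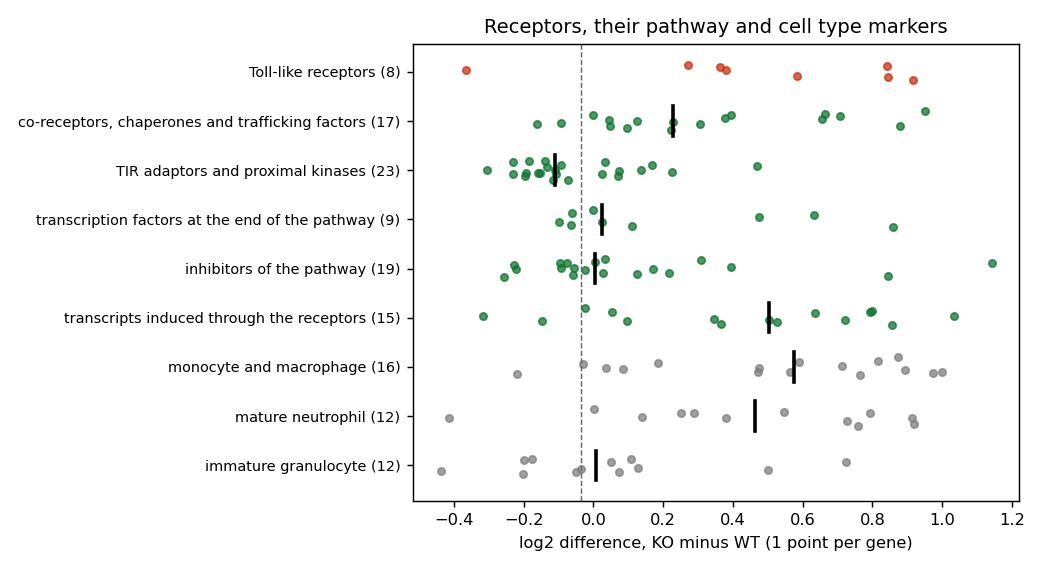
Log2 difference, KO minus WT, of each tested gene, with Toll-like receptors in red, pathway lists in green and marker lists in grey; black bars are list medians and the dashed line is the median of all tested probes (-0.03). Induced transcripts and monocyte and mature neutrophil markers have medians of 0.50, 0.58 and 0.46, whereas adaptors and kinases have -0.11 and inhibitors 0.00, which is -0.025 under quantile normalization. Under normexp background correction the adaptor median is 0.16 and Tlr1, Tlr5 and Tlr8 have the opposite sign. Without control spots in that correction the adaptor median is -0.11, and of these receptors only Tlr8 has the opposite sign.

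Markers of other myeloid cells, which also express these receptors, were mostly higher on the KO arrays too. In bulk samples more cells of a type and more RNA per cell cannot be told apart. Of 16 monocyte and macrophage markers, 16 were tested, with 14 higher and 2 lower in KO, where 47.6% of all genes were higher. Both KO arrays lay above both WT arrays in 11 and below in 0, against 28% and 30.5% of all genes. On the WT arrays they averaged 1.1 and 1.23, on the KO arrays 1.76 and 1.60, and their median difference was 0.58. That median was 0.41 without KO replicate 1 and 0.68 without KO replicate 2. None passed in limma and 9 passed as higher with the trend, against 5.88% of all genes, among them Ccr2 (0.82 ± 0.09), Fn1 (0.89 ± 0.10) and F13a1 (0.71 ± 0.09). Of 12 mature neutrophil markers, 12 were tested and 11 were higher, with means of 2.36 and 2.29 in WT and 2.55 and 2.98 in KO. Both KO arrays lay above both WT arrays in 8 and below in 1, against 28% and 30.5% of all genes. The median difference was 0.46, or 0.72 without KO replicate 1. It was 0.71 after normexp background correction, or 0.52 without control spots in it. Of the 12, 4 passed as higher with the trend, again against 5.88% of all genes, among them Ccl6 (0.91 ± 0.15), Retnlg (0.76 ± 0.20) and Fpr1 (0.73 ± 0.20). The lower marker, Fpr2, named after its values were seen, differed by -0.41 ± 0.18. The immature granulocyte list had a median of 0.01 with 6 genes higher and 6 lower. That median was 0.47 after normexp background correction, or 0.03 without control spots in it. The list's serine proteases Prtn3 (0.72 ± 0.10) and Elane (0.50 ± 0.10) passed as higher with the trend, while S100a9 differed by -0.20 ± 0.10. Of 8 tested dendritic cell markers 6 were higher and 2, Xcr1 and Zbtb46, lower (-0.30 and -0.07, named after their values were seen). Those with the smallest p were H2-Ab1, H2-Aa and Cd74 at 0.65 ± 0.13, 0.69 ± 0.15 and 0.53 ± 0.21. The median of 0.26 was 0.093 without KO replicate 1, 0.62 without KO replicate 2 and 0.17 without WT replicate 2. After normexp background correction it was -0.042, or 0.19 without control spots in that correction. The part of these cell types in the receptor values was not tested.

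Upstream sequences of the receptor genes were searched for letters bound by factors of myeloid and inflammatory transcription, on both strands, in the 250 bases before each gene start. The RefSeq promoter table on GRCm38.p6 held 10 such windows for 8 of the 10 receptor genes, and entries for Tlr4 and Tlr7 were missing. The interferon response letters GAAANNGAA were in 2 of the 10 windows, of Tlr6 and Tlr8, and in 7.13% of all 32851 windows. The C/EBP letters TTGCNNAA were in 3 windows, of Tlr3, Tlr6 and Tlr8, and in 9.56% of all. The NF-kB consensus was in 2, of Tlr2 and Tlr3, and in 3.9% of all, and the PU.1 letters GAGGAAGT in 1 of the 2 Tlr1 windows and in 2.44% of all. The windows of Tlr6, Tlr8 and Tlr2 are printed because they hold the matches of genes described above. Capitals mark matches to the interferon response and C/EBP letters in Tlr6 and Tlr8 and to the NF-kB consensus in Tlr2; in Tlr6 there are 2 overlapping interferon response matches, at -115 and -109 from the gene start. A match is a description of the letters and does not show that a factor binds there. The windows are at chr5:64959167-64959416 for Tlr6, chrX:167264330-167264579 for Tlr8 and chr3:83841609-83841858 for Tlr2, all on the minus strand.
Tlr6: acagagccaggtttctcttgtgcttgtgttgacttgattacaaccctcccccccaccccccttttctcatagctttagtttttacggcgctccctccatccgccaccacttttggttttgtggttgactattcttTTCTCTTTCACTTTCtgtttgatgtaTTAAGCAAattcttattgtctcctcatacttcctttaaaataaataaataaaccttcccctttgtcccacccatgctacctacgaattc
Tlr8: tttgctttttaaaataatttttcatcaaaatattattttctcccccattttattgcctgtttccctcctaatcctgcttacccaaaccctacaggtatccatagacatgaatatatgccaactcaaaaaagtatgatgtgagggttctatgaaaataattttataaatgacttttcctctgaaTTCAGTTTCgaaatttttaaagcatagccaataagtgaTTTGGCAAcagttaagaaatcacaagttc
Tlr2: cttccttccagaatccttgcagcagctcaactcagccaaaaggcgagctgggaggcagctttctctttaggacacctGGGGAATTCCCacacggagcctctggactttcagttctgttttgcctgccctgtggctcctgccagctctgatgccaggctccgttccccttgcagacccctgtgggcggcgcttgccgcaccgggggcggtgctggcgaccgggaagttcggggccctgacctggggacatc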

How the data were processed

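Agilent Feature Extraction 10.5.1.1 made the scanner tables, per the file headers. Their deposited intensity values have background subtracted and are unscaled across arrays. A second table, deposited by the authors, gives log2 values that differ from log2 intensity by a constant on each array (column medians 4.68). Here each array's log2 intensities were set relative to their 75th percentile over non-control spots, and spots of a probe were averaged. A probe entered the test if 2 or more of the 4 arrays had it well above background (25749 of 41174). The test was limma 3.58.1 (lmFit, then eBayes) in R 4.3.3 with genotype as the only term, Benjamini-Hochberg adjustment over all tested probes and a threshold of 0.05. Pathway and marker lists used each gene's brightest probe. Symbols were updated through RefSeq: 26933 probes matched by accession, 5570 carried a current symbol, 894 matched a synonym and 7777 kept their name. Same-numbered arrays did not deviate together over the tested probes (correlation 0.03). A pairing limited to some genes could be missed that way, and the labels do not say whether replicate numbers pair samples.

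The receptors and gene lists were chosen with earlier results of these data known. Named were every receptor probe, up to 4 genes with the smallest p per pathway list, up to 3 per marker list, and Cd14, Ly96, Unc93b1, Myd88, Ticam1, Irak4 and Irak3. Exceptions are named where they occur. The fit was tested on simulated data (25749 probes, 100 of them changed, 5 runs). A log2 change of 1 was called in 11.8% of the changed probes, or 35% with the trend. A change of 2 was called in 55.2%, or 67.8%. The share called can depend on how many probes change, which is not known for these data. Background correction, scaling, filters, probe rule, variance trend, replicate block and arrays were changed in turn.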

Additional observations from a re-analysis of the deposited data

How the results depend on the processing

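Of the 8 tested receptors, Tlr2, Tlr4, Tlr6, Tlr7 and Tlr9 kept their sign under all 16 alternatives. However, after normexp background correction Tlr9 was only -0.02, Tlr6 0.31 and Tlr2 0.67. Without control spots in that correction they were -0.32, 0.65 and 0.43. Tlr4 ranged from 0.15 to 0.35, with adjusted p in limma from 0.108 to 0.777. After normexp background correction, which lowered the median difference of all probes to -0.31, Tlr1, Tlr5 and Tlr8 were -0.16, -0.60 and -1.13; without control spots that median was -0.10 and Tlr8 was -0.14. Past the threshold were 0 of 25749 probes in the reported analysis. With normexp without control spots 3545 passed, 1372 higher and 2173 lower in KO. Median scaling gave 106 (85 higher, 21 lower) and the authors' deposited values 267 (211 higher, 56 lower). Of the 23812 probes above background on all 4 arrays, 128 passed (88 higher, 40 lower). With the trend 2480 passed, 1295 higher and 1185 lower. Receptor probes past it, of 8 tested, numbered 3 with normexp without control spots (Tlr1, Tlr2 and Tlr6) and 3 with the trend (Tlr1, Tlr5 and Tlr6). Pathway genes numbered 17 with normexp without control spots, 3 with the authors' values, 2 when above background on all arrays and 11 with the trend. Marker genes numbered 38, 6, 2 and 28 in the same order, and 1 with median scaling. The cause of these shifts was not tested. With the replicate number as a block 0 probes passed, and the receptors' adjusted p was 0.155 to 0.245. Medians of several lists turned sign. Under normexp these were adaptors and kinases (0.16), dendritic cell (-0.042) and megakaryocyte (-0.30). Without control spots in normexp they were -0.11, 0.19 and 0.17, with the sign of the reported analysis. The inhibitors were -0.025 under quantile normalization, -0.0095 without the filter and -0.055 with the mean over probes, and the transcription factors -0.0022 with that mean. The T and NK list was 0.019 under quantile normalization, 0.013 with median scaling and 0.015 with the authors' values. Leaving out 1 array gave medians from -0.44 to 0.29 for the T and NK list, -0.093 to 0.077 for immature granulocyte, -0.046 to 0.032 for inhibitors, -0.445 to 0.75 for plasmacytoid dendritic cell and -0.020 to 0.12 for transcription factors. With 1 array left in a genotype, its spread was assumed to be that of the other. Signals near background limit Tlr5 and Tlr8.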

Other observations

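Markers of other lineages varied between arrays in directions of their own. Of 6 tested eosinophil markers 5 were higher in KO and passed as higher with limma's intensity trend, against 5.88% of all genes. Among them were Siglecf (log2 difference 0.87), Ear6 (1.04) and Epx (1.0). The remaining one, Ccr3, named after its values were seen, was lower, at -0.62. The list's median was 0.93, or 0.58 after normexp background correction and 0.61 when control spots were left out of it. All 5 tested erythroid markers were lower, with a median of -0.62. Those with the smallest p were Slc4a1 (-0.62), Epor (-0.75) and Car2 (-0.39). With the trend 3 passed as lower, against 4.56% of all genes. These were Slc4a1 and, named because they passed, Hba-a1 (-0.61) and Alas2 (-0.82), whereas Epor and Car2 did not pass. Of 9 tested B cell markers 7 were lower, with a median of -0.26 that was -0.085 without KO replicate 2 and -0.46 without KO replicate 1. After normexp background correction it was -0.70, or -0.28 without control spots in that correction. The B cell markers with the smallest p were Igll1 (-0.66), Vpreb1 (-0.39) and Cd79b (0.46). In the T and NK cell list 3 genes were higher and 5 lower, with a median of -0.07. It was 0.29 without KO replicate 2, -0.44 without KO replicate 1 and 0.02 without WT replicate 1. After normexp background correction it was -1.1, or -0.23 without control spots in that correction. In this list Cd3d stood apart at -1.43, whereas Cd3e and Cd3g were at -0.22 and 0.37. Megakaryocyte markers had a median of 0.41 over 4 genes, with Gp9 at 1.19, Pf4 at 0.65 and Gp1bb at 0.05. That median was 0.040 without KO replicate 2, 0.15 without WT replicate 1, 0.94 without KO replicate 1 and 0.93 without WT replicate 2, so it rested on single arrays.

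Of 8 plasmacytoid dendritic cell markers 4 were higher and 4 lower, with a median of 0.06 that was -0.44 without KO replicate 1 and 0.75 without KO replicate 2. Those with the smallest p were Bst2, Tcf4 and Runx2 at 0.61, 0.55 and 0.24, and the lower ones were Siglech (-1.34), Cox6a2 (-0.16), Klk1 (-0.09) and Ccr9 (-0.0047). Siglech, singled out after its values were seen, was -0.49 and -3.26 on the WT arrays and -2.16 and -4.26 on the KO arrays, so that its spread within a genotype was larger than the difference between genotypes of any receptor.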
